A study of Homo sapiens with 4 samples.

Results

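DEAD-box and DEAH-box proteins are the largest families of RNA helicases, ATP-driven proteins that pull paired RNA strands apart or strip proteins from RNA. DEAD-box proteins, most of them named DDX, open short duplexes locally, whereas most DEAH-box proteins, named DHX, move along RNA. Among the members are spliceosomal and nucleolar proteins, export factors and cytoplasmic sensors of viral RNA. The genes described here were those of the count table with a symbol of DDX or DHX followed by a digit, without DDX6, antisense genes and pseudogenes. Of 65 symbols of that form, DDX6, 3 antisense genes and 7 pseudogenes were left out, which gave 54 genes, 38 DDX and 16 DHX, of 27011 genes in the table.

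RNA-Seq compared wild-type (WT) HEK293T cells, a human embryonic kidney line that carries the SV40 large T antigen, with Helz-null HEK293T cells. In the latter, CRISPR-Cas9 editing had left a frameshift in HELZ, a helicase of the UPF1-like family. The libraries were made from extracted total RNA with the TruSeq RNA Sample Prep Kit. Each genotype had 2 biological replicates, plated 1 day before harvest and untreated. The comparison asks which transcripts change in abundance when HELZ is lost. A single edited line was compared with its parent, so a change that arose with the isolation of that line cannot be told apart from loss of HELZ. The libraries held 65005666 and 42342295 counts in WT cells and 41745401 and 70464140 counts in Helz-null cells.

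HELZ itself stood at 97.7 and 102 CPM, counts scaled to a common library total, in the WT libraries and at 36.2 and 37.1 CPM in the Helz-null libraries. Its transcript thus remained at 36.7% of the WT mean, and both edited libraries lay below both WT libraries (log2FC -1.44 ± 0.04 (SE), edgeR FDR 2.13e-27). Of the 7 HEK293T markers, 0 were at 0 counts, and their summed level was 1578 CPM in each WT library and 1665 and 1647 CPM in the Helz-null libraries. That sum holds changes in opposite directions, since 4 of the 6 tested markers were called. The neurofilament gene NEFM rose from a mean of 231 to 427 CPM (log2FC 0.89, edgeR FDR 1.26e-25). The keratin gene KRT8 fell from 28.1 to 14.1 CPM (log2FC -0.98, edgeR FDR 7.13e-15), and KRT18 (log2FC -0.16) and VIM (-0.14), the most abundant marker at 1049 and 951 CPM, fell as well. The part of these shifts in the results below was not tested. The 4 blood cell markers summed to 4.63 to 6.52 CPM, most of it CD68, and the 4 fibroblast markers to 14.5 to 16.2 CPM, nearly all COL1A1, with DCN at 0 in every library. The 3 endothelial markers summed to at most 0.331 CPM.

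Most helicase genes were well expressed. Of the 54 genes, 45 were among the 10978 genes tested, which are those the study kept with its filter on expression, and their median level was 31.6 FPKM, a count scaled to gene length and library size, against 12.6 FPKM for all tested genes. DDX39B, which packages spliced mRNA for export, had the highest level, at 202 ± 3.02 FPKM (SD over the 4 libraries). DDX5, a coregulator of transcription and splicing, followed at 129 ± 4.83 FPKM. DDX21, a nucleolar protein of ribosome synthesis, stood at 97.2 ± 5.10 FPKM, DDX17 at 89.1 ± 7.43 FPKM and DDX1 at 88.9 ± 3.81 FPKM. By their means over the 4 libraries, these 5 genes made up 32.6% of the summed FPKM of the 45. The order differed between the genotypes. In WT cells DDX3X, at 90.6 and 88.6 FPKM, was above DDX1, at 87.3 and 84.3 FPKM. In Helz-null cells DDX1 had 91.7 and 92.3 FPKM, DDX17 86.7 and 81.2 FPKM and DDX3X 78.0 and 76.5 FPKM. DHX35 had the lowest level, 5.78 FPKM. The order was close in many places: of 44 pairs of neighbours in it, 32 had library ranges that overlapped, among them DDX21 with DDX17 and DDX17 with DDX1. The level of DDX39B is uncertain, because a readthrough transcript that contains it, ATP6V1G2-DDX39B, carried 99.8% to 99.9% as many counts in each library, so the same reads were probably counted for both.

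**Figure D1:**
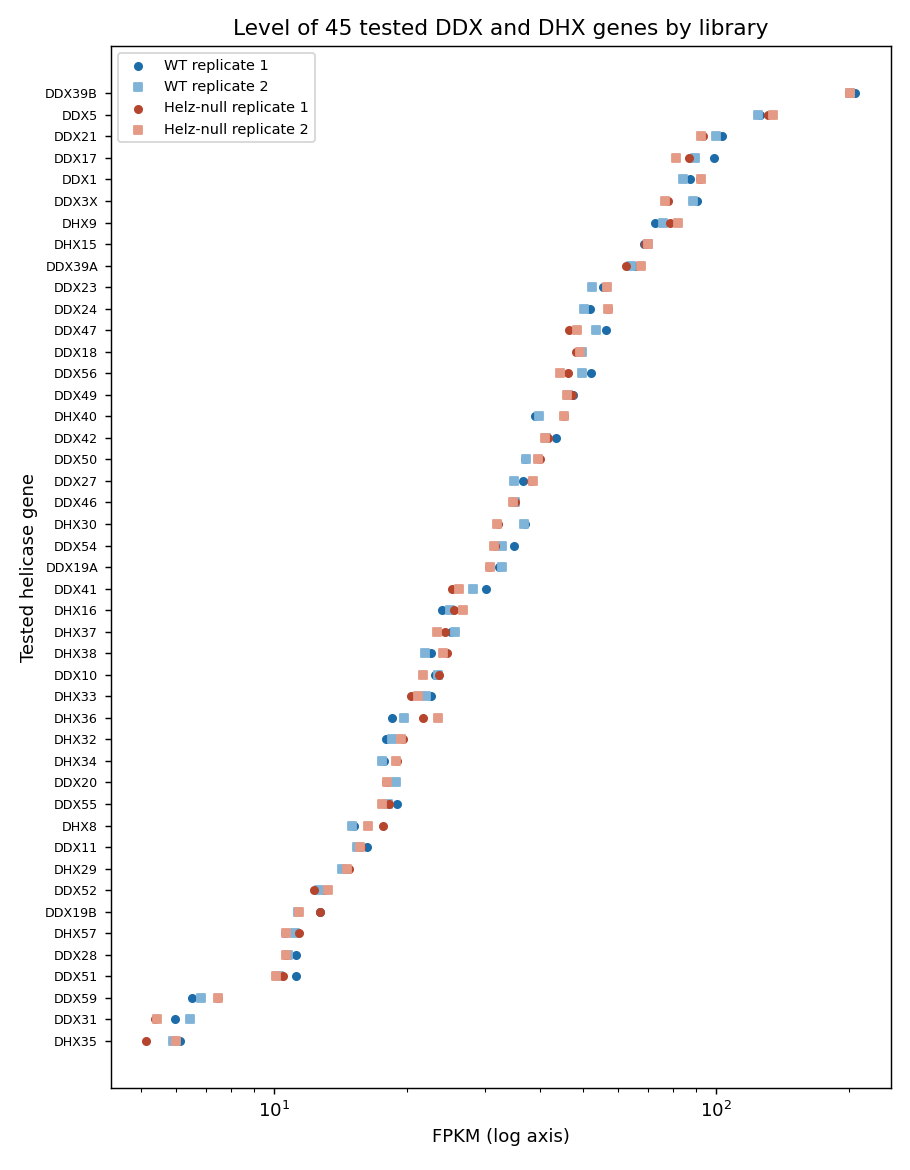
FPKM on a log axis for the 45 tested DDX and DHX genes, ordered by mean, with 1 point for each of the 2 WT and 2 Helz-null libraries. Levels run from a mean of 5.78 FPKM for DHX35 to 202 FPKM for DDX39B, and the 4 libraries of a gene lie close together.

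In Helz-null cells 6 of the 45 tested genes were up-regulated and 8 were down-regulated at an FDR under 0.005 in edgeR's quasi-likelihood test, and 31 were not called. That is 13.3% up and 17.8% down, beside 13.9% and 15.5% of all tested genes, and 31.1% in either direction beside 29.4%. The family was thus called about as often as the background. With library size as the only scaling there were 12 rises and 7 falls (42.2%, beside 31.3% of all tested genes), and the falls numbered 5 without Helz-null replicate 1 and 4 without Helz-null replicate 2. Calls were fewer among all genes in those fits too, with 9 of the 45 called beside 21.0% of all tested genes in the first and 8 beside 20.1% in the second. The changes were small. Among the 45, the largest rise was 1.19-fold and the largest fall 1.16-fold. A larger absolute log2FC than any of the 45 was found for 16.7% of all tested genes. Among tested genes at least as abundant as the lowest of the 45, this share was 12.4%. The median log2FC of the 45 genes was -0.01, and that of all tested genes was -0.00. The 2 WT and 2 Helz-null libraries did not overlap for 31 of the 45 genes (68.9%), beside 70.6% of all tested genes. Because no tested member's change reached 1.2-fold, a glmTreat test against that fold could call none of them and adds nothing to these values. It called 4.87% of all tested genes. DESeq2 called 12 of the 45 (26.7%), beside 21.8%.

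**Figure D2:**
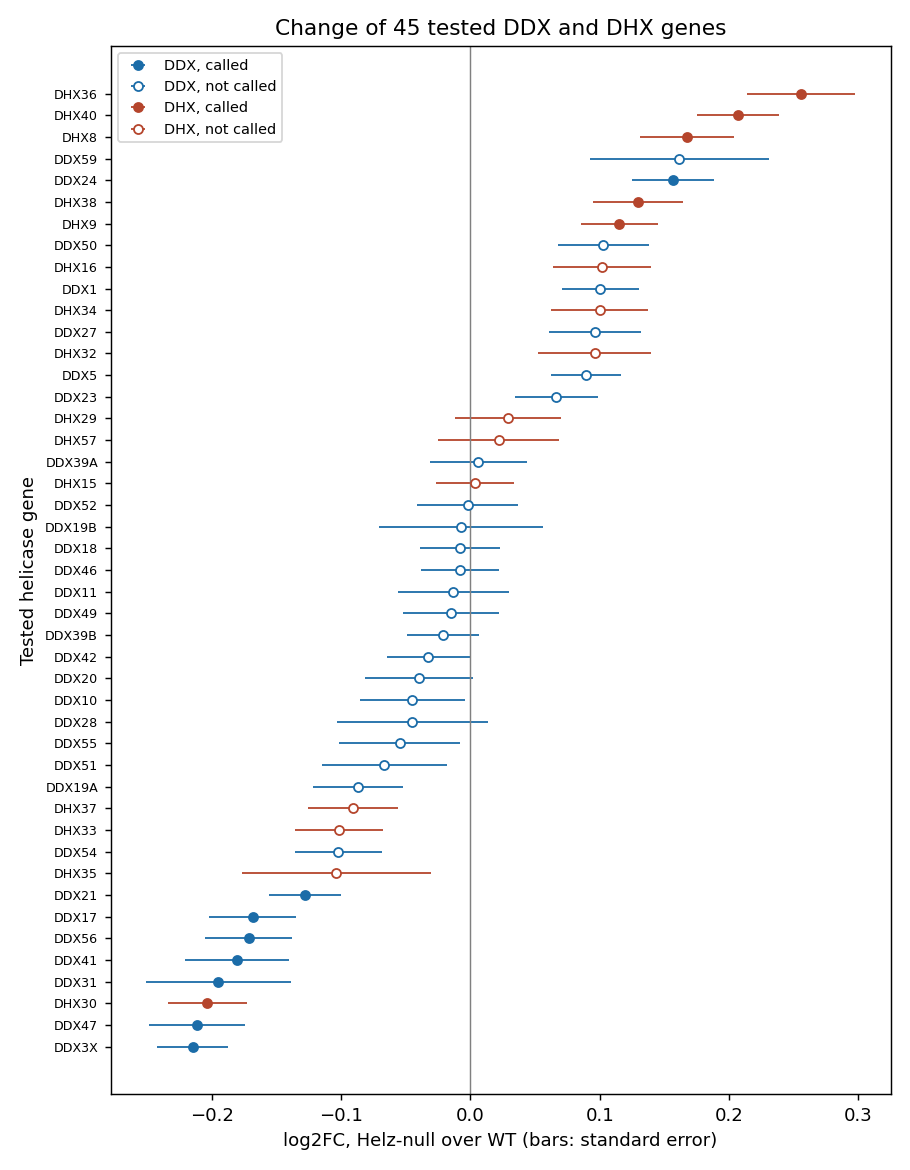
log2FC of Helz-null over WT with its standard error for the 45 tested genes, DDX in blue and DHX in red, filled where called at an FDR under 0.005. Called genes run from -0.21 for DDX3X to 0.26 for DHX36, with DHX genes making up 5 of the 6 called at the upper end and DDX genes 7 of the 8 called at the lower end.

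The rises and falls divided unevenly between the symbols, a pattern that was looked at after the values were seen. The 15 tested DHX genes had 5 rises and 1 fall, and the 30 tested DDX genes had 1 rise and 7 falls. That is 33.3% up and 6.67% down for DHX and 3.33% up and 23.3% down for DDX, beside 13.9% up and 15.5% down over all tested genes. The median log2FC was 0.10 for the DHX genes and -0.03 for the DDX genes. With library size as the only scaling the DDX median turned to 0.01, while the median of all tested genes moved from -0.00 to 0.03. A change of scaling moves all genes alike, so this turn of sign is not particular to the DDX genes. The DDX calls were then 5 up and 6 down, and the DHX genes had 7 up and 1 down. At an FDR under 0.05, which 44.4% of all tested genes met, the DDX genes had 5 up and 9 down and the DHX genes 7 up and 3 down. Single libraries moved the split as well. Without WT replicate 1, where 26.8% of all tested genes were called beside 33.3% of the 45, the DDX genes had 4 rises and 6 falls, with a median of -0.0041, and the DHX genes 4 rises and 1 fall. Without WT replicate 2, where 29.2% of all tested genes were called beside 35.6% of the 45, the DDX genes had 2 rises and 7 falls and the DHX genes 5 rises and 2 falls. Without Helz-null replicate 1 the DDX falls numbered 4 and the DHX rises 3, and without Helz-null replicate 2 they numbered 3 and 3, in fits that called fewer of all tested genes (21.0% and 20.1%). With the GC content offset, which called 37.8% of the 45 beside 29.4% of all tested genes, the DDX genes had 4 rises and 7 falls and the DHX genes 4 rises and 2 falls. Over the alternatives the DHX median was 0.07 to 0.13 and the DDX median -0.04 to 0.01. DESeq2, which called 26.7% of the 45 beside 21.8% of all tested genes, gave 2 rises and 5 falls for DDX. For DHX it gave 4 rises and 1 fall. No test of the difference between the symbols was made. The summed level of the 15 DHX genes was 1747 and 1774 CPM in WT cells and 1817 and 1829 CPM in Helz-null cells. The 30 DDX genes summed to 5235 and 5073 CPM in WT cells and to 5001 and 4982 CPM in Helz-null cells.

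Among helicases of translation and of G-quadruplexes, the largest rise and the largest fall of the 45 tested genes stood side by side. DHX36, which unwinds G-quadruplexes in RNA and DNA, lies at chr3:153990335-154042276 (GRCh37, minus strand). It had 66.5 and 70.9 CPM in WT cells and 78.6 and 84.7 CPM in Helz-null cells. Both Helz-null libraries were above both WT libraries (log2FC 0.26 ± 0.04 (SE), edgeR FDR 3.11e-06). DDX3X, an X-linked helicase that helps translate mRNAs with structured leaders, lies at chrX:41192601-41223725 (plus strand). It had 611 and 597 CPM in WT cells and 526 and 515 CPM in Helz-null cells, with all WT values higher (log2FC -0.21 ± 0.03, edgeR FDR 2.46e-08). DHX29, which assists initiation on structured leaders, was not called (log2FC 0.03). The Y-linked DDX3Y is counted among the members and its level is not given.

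Of the 10 tested helicases of pre-mRNA splicing, 2 rose and 1 fell, and this 30.0% is about the 29.4% of all tested genes. DHX8, which releases spliced mRNA from the spliceosome, had 109 and 108 CPM in WT cells and 127 and 117 CPM in Helz-null cells (log2FC 0.17 ± 0.04 (SE), edgeR FDR 0.000231). The Helz-null libraries were both higher. The call was lost without Helz-null replicate 1 (log2FC 0.11), and relative to its chromosomal neighbours the gene stood at 0.09. DHX38, which acts at the second step of splicing, had 101 and 97.5 CPM against 110 and 108 CPM (log2FC 0.13 ± 0.04, edgeR FDR 0.00257). It was called in only 1 of the 4 fits that left out a library, and neither in DESeq2 nor with the GC content offset. DDX41, a helicase of the late spliceosome that is mutated in familial leukaemia, had 82.4 and 77.2 CPM in WT cells and 69.1 and 71.8 CPM in Helz-null cells (log2FC -0.18 ± 0.04, edgeR FDR 0.000321). The call was lost without WT replicate 1 (log2FC -0.13) and without Helz-null replicate 1 (-0.16). DHX15, which takes apart the intron lariat spliceosome, was among the 3 members with the smallest change, at 207 and 212 CPM against 208 and 211 CPM (log2FC 0.00).

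Ribosome biogenesis had the largest list, with 16 tested genes, of which 1 rose and 4 fell. The share called, 31.2%, was near the 29.4% of all tested genes. Their median log2FC was -0.06, and 13 of the 16 values were below 0 (81.2%, beside 50.2% of all tested genes). Most of the list are DDX genes, and 22 of the 30 tested DDX genes were below 0 (73.3%). The tilt is thus not particular to this list. DDX47, needed for early processing of ribosomal RNA, had 102 and 97.3 CPM in WT cells and 84.4 and 87.9 CPM in Helz-null cells (log2FC -0.21 ± 0.04 (SE), edgeR FDR 1.11e-05). DDX56 had 150 and 143 CPM against 133 and 128 CPM (log2FC -0.17 ± 0.03, edgeR FDR 6.8e-05), and its call was lost without Helz-null replicate 2. Relative to its neighbours DDX56 stood at -0.11. Both genes were lower in each Helz-null library than in either WT library. DDX21 had 517 and 503 CPM in WT cells and 469 and 464 CPM in Helz-null cells (log2FC -0.13 ± 0.03, edgeR FDR 0.000217). Its call was lost without Helz-null replicate 1 (log2FC -0.14), without Helz-null replicate 2 (-0.12) and with the GC content offset (-0.08). DDX31, a low-level member, had 33.5 and 36.1 CPM against 30.1 and 30.4 CPM (log2FC -0.20 ± 0.06, edgeR FDR 0.00425) and was called in 1 of the 4 fits without a library. Its call was also lost in DESeq2, with library size only, with upper quartile factors and with edgeR's filter on low counts. DDX24 went the other way, with 153 and 148 CPM in WT cells and 168 CPM in both Helz-null libraries (log2FC 0.16 ± 0.03, edgeR FDR 9.29e-05). DDX52 was the member with the smallest change, at a log2FC of -0.00.

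DHX9 and DDX17, which both act in transcription and in the assembly of RNA-protein complexes, moved in opposite directions. DHX9, also called RNA helicase A, had 339 and 354 CPM in WT cells and 368 and 383 CPM in Helz-null cells (log2FC 0.12 ± 0.03 (SE), edgeR FDR 0.00148). The call was lost without WT replicate 1 and without Helz-null replicate 2. DDX17 had 475 and 429 CPM in WT cells and 416 and 390 CPM in Helz-null cells (log2FC -0.17 ± 0.03, edgeR FDR 8.28e-05), a call that was lost without Helz-null replicate 2 (-0.12) and in DESeq2. WT replicate 1 moved it most, to -0.09 when left out. DDX5, the close paralog of DDX17, was just outside the threshold at 575 and 569 CPM against 601 and 616 CPM (log2FC 0.09 ± 0.03, edgeR FDR 0.00706). It was called under 9 of 17 alternatives, among them DESeq2, the GC content offset and the fits without either WT replicate. DDX1, a subunit of the tRNA ligase complex, was nearest to it at a log2FC of 0.10 and an edgeR FDR of 0.00559, and was called under 7.

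A ratio of paralogs within a library does not depend on how libraries are scaled. Per length, DDX5 exceeded DDX17 by 0.34 and 0.47 on the log2 scale in the WT libraries and by 0.60 and 0.73 in the Helz-null libraries. DDX21 exceeded DDX50, its neighbour on chromosome 10, by 1.48 and 1.43 in WT cells and by 1.23 and 1.22 in Helz-null cells. In both pairs the libraries of the genotypes did not overlap, and the exact two-sided permutation test gave 0.333, the smallest p that 4 libraries allow. The ratio of DDX19A to DDX19B was 1.35 and 1.54 in WT cells and 1.26 and 1.43 in Helz-null cells (exact permutation p = 0.667), and that of DDX39A to DDX39B was -1.65 and -1.64 against -1.68 and -1.57 (exact permutation p = 1). Reads from such near copies may be assigned to either gene. The 4 tested export helicases, which include both of these pairs, had 0 calls in edgeR and 0 in DESeq2, with 1 at an unadjusted edgeR p under 0.05, which 50.9% of all tested genes had.

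DHX40, a DEAH-box protein with little known function, had 143 and 145 CPM in WT cells and 166.15 and 166.10 CPM in the Helz-null libraries (log2FC 0.21 ± 0.03 (SE), edgeR FDR 1.01e-06). A partial copy, TBC1D3P1-DHX40P1, carried 7.57% to 7.89% as many counts. DHX30, which acts in mitochondrial ribosome assembly, had 189 CPM in both WT libraries and 165 and 163 CPM in Helz-null cells (log2FC -0.20 ± 0.03, edgeR FDR 8.07e-07). It lies on the short arm of chromosome 3 (chr3:47844399-47891685, GRCh37) among genes that were lower as well. All 20 of its nearest tested genes, 10 on each side, had a log2FC below 0, with a median of -0.25, and relative to that median DHX30 stood at 0.05. The part of this neighbourhood in the fall of DHX30 was not tested. DHX9 had neighbours with a median of 0.10, which left it at 0.01. For DHX36 and DDX3X the neighbours had medians of -0.06 and 0.07, on the other side of 0 from the gene.

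The 9 members outside the tested genes include DDX3Y, whose level is not given, and 2 of the others had appreciable counts. DDX58, which encodes the RIG-I sensor of viral RNA, had 278 and 188 counts in WT cells and 119 and 211 in Helz-null cells, or 4.33 and 4.49 CPM against 2.82 and 2.96 CPM. DDX60, an interferon-induced helicase, had 257 and 165 counts against 86 and 184, or 4.004 and 3.94 CPM against 2.04 and 2.58 CPM. Neither gene's libraries overlapped between the genotypes. In the edgeR fit over all 20904 genes with a count, in which 9.7% were down-regulated, both fell, DDX58 by 1.52-fold (log2FC -0.60, FDR 0.000182) and DDX60 by 1.69-fold (log2FC -0.76, FDR 6.81e-06). With edgeR's own filter on low counts the FDR was 0.00162 for DDX58 and 0.000378 for DDX60. DDX60 lies on distal chromosome 4 (chr4:169137442-169240034, GRCh37), where all 20 neighbours were below 0 with a median of -0.54. DDX58 (chr9:32455300-32526206) had neighbours with a median of -0.01. DHX58, which encodes the related receptor LGP2, had 0.748 and 0.43 CPM against 0.805 and 0.491 CPM, so its libraries overlapped. IFIH1, which encodes the related sensor MDA5 and is named here after its values were seen, had 1.67 and 1.29 CPM in WT cells and 0.616 and 0.688 CPM in Helz-null cells (log2FC -1.19, edgeR FDR 5.5e-05 in the same fit), with neighbours at a median of 0.00. DDX25, DDX4 and DDX53, which belong to the germ line, had at most 8 counts in a library. DDX43 and DDX60L had 0 counts in every library, which allows up to 0.0421 to 0.0716 CPM (3 counts, counting error only). The sources used here do not say whether both reads of a pair were counted. If they were, the limit would be higher.

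The promoters of DDX58, DDX60 and IFIH1 are shown because these 3 genes were lower together, and they were picked for that. The libraries of DHX58, of the same list, overlapped, as did those of IRF7. IRF7, an interferon-induced gene, had 2.24 and 2.60 CPM in WT cells and 2.60 and 2.25 CPM in Helz-null cells. The stretches printed are the 250 bases before the start site in RefSeq (GRCh38.p14, all on the minus strand), at chr9:32526197-32526446 for DDX58, chr4:168318753-168319002 for DDX60 and chr2:162318685-162318934 for IFIH1. Capitals mark GAAA, any 2 bases and GAAA again, on either strand, the core of the interferon-stimulated response element, which was searched for after the values and the DDX60 promoter had been seen.
DDX58: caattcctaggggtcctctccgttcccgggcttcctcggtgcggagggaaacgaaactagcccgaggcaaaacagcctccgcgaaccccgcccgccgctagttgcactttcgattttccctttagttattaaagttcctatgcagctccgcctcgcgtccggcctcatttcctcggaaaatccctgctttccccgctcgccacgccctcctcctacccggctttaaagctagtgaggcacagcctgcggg
DDX60: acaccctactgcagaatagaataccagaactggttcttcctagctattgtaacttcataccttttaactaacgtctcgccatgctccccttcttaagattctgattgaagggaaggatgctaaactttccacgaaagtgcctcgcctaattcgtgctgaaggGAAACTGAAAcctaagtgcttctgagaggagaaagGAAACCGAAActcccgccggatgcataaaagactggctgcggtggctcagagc
IFIH1: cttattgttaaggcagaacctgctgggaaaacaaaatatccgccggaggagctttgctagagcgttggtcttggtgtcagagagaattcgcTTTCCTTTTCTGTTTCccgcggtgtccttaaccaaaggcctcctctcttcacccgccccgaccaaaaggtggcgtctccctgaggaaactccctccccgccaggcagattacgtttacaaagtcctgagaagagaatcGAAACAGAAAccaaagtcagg
DDX60 held 2 matches, which begin 88 and 53 bases before the start, and IFIH1 held 3, of which 2 overlap on the opposite strand. The window of DDX58 held no match to this pattern. It does hold gaaacgaaa, a repeat of GAAA with a shorter spacer, which the pattern does not cover. A promoter was listed for 49 members, of which 3 held a match (6.12%), DDX60, DDX60L and DHX15, beside 3.07% of all 27305 promoters and 2.1% of the 8884 that matched a tested gene. DDX60 was bound to match, because its promoter had been seen before the motif was chosen. DDX60L held matches at similar places, 80 and 50 bases before its start. The share among members therefore cannot be read as an excess. A match is a description of the sequence and not of a bound site.

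Genes that work with these helicases were called in both directions, and the counts below stand beside 29.4% of all tested genes called. Of 11 tested related RNA helicases 2 rose and 3 fell, with SKIV2L of the Ski complex at a log2FC of 0.18 and ASCC3 at -0.24. The SKIV2L call was lost in DESeq2, with the GC content offset, without WT replicate 1 and without Helz-null replicate 1, and ASCC3 stood at -0.16 relative to its neighbours. Among the eIF4A proteins, which are DEAD-box helicases under another name, EIF4A2 fell (log2FC -0.13 ± 0.03 (SE), edgeR FDR 0.000775), while EIF4A1 (-0.05) and EIF4A3 (0.09) were not called. EIF4A1 was called without WT replicate 2 (-0.07) and stood at -0.16 relative to its neighbours. EIF4A3 was called with library size only (0.12) and without WT replicate 1 (0.11) and stood at 0.05 relative to its neighbours. The EIF4A2 call was lost with library size only (-0.09), with the GC content offset (-0.09) and without either Helz-null replicate. G-patch proteins, which activate DEAH-box helicases, had 4 rises and 3 falls among 22 tested (31.8%). TFIP11, the partner of DHX15, rose (log2FC 0.24) and CHERP fell (-0.31). Of MIF4G proteins and GLE1, which bind DEAD-box helicases, 10 were tested and had 3 rises, led by NOM1 (0.29), and 1 fall, EIF4G2 (-0.12). Relative to its chromosomal neighbours NOM1 turned to -0.04, and the EIF4G2 call was lost with library size only and without either Helz-null replicate.

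Of 10 tested subunits and adaptors of the TREX export complex, which contains DDX39B, 1 rose, THOC3 (log2FC 0.14), and 3 fell, led by THOC7 (-0.29), whereas DESeq2 called 1 of the 10. THOC7 lies on chromosome 3 and stood at -0.07 relative to its neighbours. The THOC3 call was lost in DESeq2, with edgeR's filter on low counts and in 3 of the 4 fits without a library. The exon junction complex had 0 of 5 genes called by edgeR and 0 by DESeq2, with 2 at an unadjusted edgeR p under 0.05 (40.0%, beside 50.9% of all tested genes). In the SMN complex, which contains DDX20, 1 of 9 was called, GEMIN7 (-0.21), against 0 in DESeq2, and that call was also lost without Helz-null replicate 2. SMN1 and SMN2, which make up 2 of the 9, had identical counts in every library, so the same reads stand for both. In the tRNA ligase complex, which contains DDX1, 1 of 7 rose, the ligase RTCB (0.13), a call lost without WT replicate 2 and without Helz-null replicate 2. Of 7 tested genes of RIG-I-like receptor signalling, IKBKE rose (0.68) and TRAF3 fell (-0.16). The TRAF3 call was lost in DESeq2, with library size only, without WT replicate 1 and without Helz-null replicate 2.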

How the data were processed

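The deposited table gives a raw count per gene and library. To make it, the authors used Bowtie2 to discard ribosomal RNA, TopHat2 to align the read pairs (hg19) and QuasR to count. The table also gives each gene's width in bases, as deposited. Versions, the annotation and the use of strand are not given in the sources used here, so overlapping and near-identical genes are uncertain. The deposited comparison holds the authors' log2 fold changes, log2 CPM and p-values from edgeR. Only its gene names were read, as the list of genes tested.

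Counts were fitted with edgeR 4.0.16 in R 4.3.3 (TMM scaling, quasi-likelihood test, genotype as the only factor), with Benjamini-Hochberg adjustment over all tested genes. CPM and FPKM were computed from counts, widths and TMM-scaled totals. DESeq2 1.42.0 was an alternative. The fit was tested on simulated data with changes of 1.3-fold and 2-fold. These are larger than any change of a tested member, so the simulation does not cover calls of that size. Gene positions came from GENCODE for GRCh37. Named genes were HELZ, called members, the 5 with the highest FPKM, the 3 with the smallest change, paralog pairs, eIF4A genes and the most changed called gene of each partner list in each direction, with exceptions named in the text. The members and lists were chosen with earlier results of these data known. With 2 libraries per genotype, p-values measure the spread between these libraries.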

Additional observations from a re-analysis of the deposited data

How the results depend on the processing

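The main counts were 6 members up-regulated and 8 down-regulated. Up-regulated members numbered 12 with library size as the only scaling, 12 at an FDR under 0.05 and 0 with glmTreat. That test also called 0 down-regulated and could call none, since no tested member changed by 1.2-fold. Leaving out 1 library gave 4 to 8 up-regulated and 4 to 9 down-regulated, beside 20.1% to 29.2% of all tested genes called, with 5 down-regulated without Helz-null replicate 1 and 4 without Helz-null replicate 2; these fits have fewer samples, and the lone library is assumed to vary like the pair. The median log2FC of the tested members was -0.0080 in the main fit, beside -0.0009 for all tested genes. It was 0.025 with library size only, beside 0.032, and 0.0062 with upper quartile factors, beside 0.013. These 2 scalings moved all genes alike. Without 1 library the members' median was -0.02 to 0.00. The cause of the shifts other than those with a change of scaling was not tested. HELZ was called in every alternative with a test, at -1.47 to -1.40. Of the 14 called members, 6 kept their call under every alternative except glmTreat. After subtraction of the chromosomal neighbourhood DHX30 turned to 0.045 and NOM1 to -0.044. With the replicate block 8 members were up-regulated and 8 down-regulated (35.6%, beside 32.0% of all tested genes); same-numbered libraries had a correlation of deviations of 0.013, over only 2 pairs, so the numbers were not taken as pairing. The promoter search and the split by symbol were added after seeing the data. The search for helicase motifs in proteins was not run.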
